A study of Homo sapiens with 6 samples.

Results

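The genes described here are the 10 core genes of polyamine synthesis, its antizyme control and polyamine breakdown (ODC1, AMD1, SRM, SMS, OAZ1, OAZ2, AZIN1, SAT1, SMOX and PAOX). They were chosen by gene symbol from the deposited count and FPKM tables (FPKM, fragments scaled to transcript length and to library size). All 10 were found among the 30618 genes with counts and the 30275 genes with FPKM values. The libraries came from ARPE-19, a human cell line of the retinal pigment epithelium. All 6 cultures were kept in 50 mM glucose as a model of diabetic retinopathy. In 3 of them (NC) a non-targeting control siRNA had been transfected, and in the other 3 (siEIF1) an siRNA against EIF1, so the RNA-seq holds no normal-glucose group. The study's methods describe the replicates of a group as independent and print the sequence of 1 EIF1 siRNA.

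Polyamines (putrescine, spermidine and spermine) are small positively charged molecules that bind RNA and DNA and are needed for cell growth. ODC1, ornithine decarboxylase, makes putrescine from ornithine, AMD1 makes the aminopropyl donor from S-adenosylmethionine, and SRM and SMS use that donor to make spermidine and then spermine. The antizymes OAZ1 and OAZ2 bind ODC1 protein and deliver it to the proteasome, and AZIN1, a relative of ODC1 without its catalytic activity, binds the antizymes and frees ODC1. SAT1 acetylates spermidine and spermine, PAOX oxidises the acetylated forms, and SMOX oxidises spermine directly. EIF1 is the initiation factor that keeps a scanning ribosome from starting at poor start codons. Polyamine levels feed back on this pathway during translation, through upstream reading frames in the AMD1 and AZIN1 transcripts and through a change of reading frame in the antizymes. The libraries measured RNA per gene and not translation, protein or polyamines.

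The site of that change of frame is shown for both antizymes, because the RNA level of an antizyme gene does not give the amount of full-length antizyme. GENCODE release 44 writes the shift into its canonical OAZ1 and OAZ2 coding sequences by leaving out 1 base, the first base of the stop codon of the starting frame. The windows below are from GRCh38 and are written 5′ to 3′ on the strand of the gene. Capitals mark the last codon read in the starting frame and the TGA stop codon after it.
OAZ1, chr19:2271428-2271458, forward strand, exons 2 and 3: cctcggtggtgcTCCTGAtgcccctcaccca
OAZ2, chr15:64691500-64691530, reverse strand, exons 2 and 3: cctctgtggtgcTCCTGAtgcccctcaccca
The base left out is at 2271443 in OAZ1 and at 64691515 in OAZ2. Each window is unbroken in the genome. Its coding pieces are separated by that base alone, so the exon numbers do not mark a splice junction at this site. Of the 31 bases of these windows, 30 are identical between OAZ1 and OAZ2.

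The libraries held between 26499929 and 31431479 counts. The targeted gene, EIF1, had an FPKM of 294.35, 281.08 and 281.28 in NC replicates 1 to 3 and of 24.28, 22.68 and 23.50 in siEIF1 replicates 1 to 3. The siEIF1 mean was 8.22% of the NC mean. Of 11 retinal pigment epithelium markers, 9 could be analysed, with a summed level between 2934 and 3417 CPM (counts scaled to library size) in every library. Most of that sum was KRT8 and KRT18, with mean levels of 948.1 and 1222 CPM in the NC group, and BEST1 (699.5), OTX2 (73.3) and MITF (50.9) were also expressed. SERPINF1 (6.19), PMEL (1.20) and RLBP1 (0.530) were low, and TYR, the enzyme of pigment synthesis, had at most 2 counts in a library. RPE65 and TTR were looked up by symbol and were not among the genes with counts. Of these markers, KRT8, KRT18 and RLBP1 rose in siEIF1 (folds of 1.18, 1.19 and 2.92, edgeR's adjusted p = 0.0095, 0.0044 and 0.00102). RLBP1 had only 11 to 49 counts a library. BEST1 had a log2 fold change of -0.32 and did not pass (edgeR's adjusted p = 0.106). The part of these markers in the results below was not tested. For 5 of 8 markers of other cell types a value could be given, and together they reached at most 0.814 CPM. Counts were tested with edgeR (quasi-likelihood test, 16749 genes). A call is an adjusted p under 0.05, by the Benjamini-Hochberg method.

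Of the 10 polyamine genes, 4 fell (ODC1, AMD1, SRM and SAT1), 1 rose (PAOX) and 5 did not pass the test (SMS, OAZ1, OAZ2, AZIN1 and SMOX). The steepest fall was that of the acetyltransferase SAT1, to a fold of 0.575. The antizyme genes and AZIN1 lay between a fold of 0.938 and 1.04. All 10 members passed the filter on low counts. Among all tested genes, 20.6% were called by the same rule, 10.2% higher and 10.4% lower. No polyamine gene reached the limit of the study's methods, a fold above 2 or below 0.5 together with the adjusted p, which 1.71% of the tested genes did. The median log2 fold change was -0.15 over the 10 members and 0.0033 over all tested genes. In 6 members the CPM values of the groups did not overlap, against 37.1% of all tested genes.

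**Figure D1:**
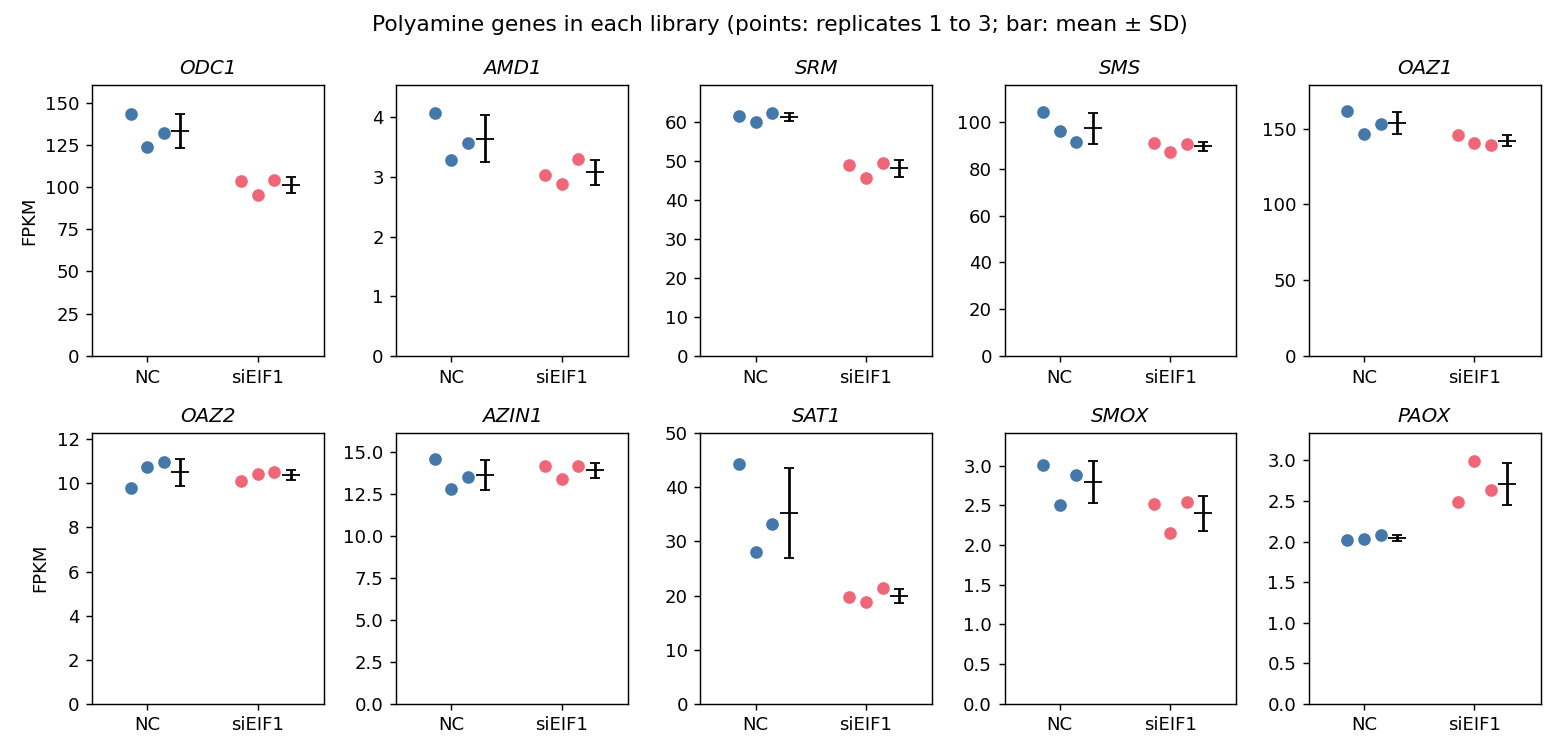
FPKM (vertical axis, starting at 0) of each of the 10 polyamine genes in the NC (blue) and siEIF1 (red) libraries. Points are replicates 1 to 3 from left to right and the bar is the mean ± SD. The siEIF1 points lie under all NC points for ODC1, SRM, SMS, SAT1 and OAZ1 and above them for PAOX.

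ODC1 (ENSG00000115758.13, chromosome 2, 10439968 to 10448327, reverse strand, 12 exons) is the first and rate-limiting step of the pathway. Its FPKM was 143.42, 123.53 and 132.20 in NC replicates 1 to 3 and 103.60, 95.42 and 103.93 in siEIF1 replicates 1 to 3. The lowest NC library stood above the highest siEIF1 library. The mean fell from 133.1 ± 9.97 to 101.0 ± 4.82 (SD, n = 3), which is 75.9% of the NC mean. The log2 fold change on the counts was -0.38 (standard error 0.057, edgeR's quasi-likelihood test, adjusted p = 4.68e-04). ODC1 was among the 0.786% most abundant genes by mean FPKM. As bulk RNA was measured, fewer cells with a transcript and less transcript per cell cannot be told apart, here and for every gene below.

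SRM, spermidine synthase (ENSG00000116649.10, chromosome 1, 11054584 to 11060020, reverse strand), changed by nearly the same amount. Its FPKM was 61.54, 60.08 and 62.20 in the NC and 49.04, 45.61 and 49.59 in the siEIF1 libraries. The NC libraries lay within a narrow range, far above the siEIF1 libraries. The means were 61.3 ± 1.08 and 48.1 ± 2.16 (SD, n = 3). On the log2 scale SRM fell by 0.33 (standard error 0.045, edgeR's quasi-likelihood test, adjusted p = 2.04e-04). Of the 10 members, SRM had the smallest standard error and the smallest p-value.

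AMD1, S-adenosylmethionine decarboxylase (ENSG00000123505.19, chromosome 6, 110874770 to 110898879, forward strand), was called by a narrow margin. Its FPKM was 4.07, 3.29 and 3.57 in the NC libraries and 3.04, 2.89 and 3.30 in the siEIF1 libraries. The groups touched on this scale, since siEIF1 replicate 3 lay just above NC replicate 2, while on the CPM scale they did not overlap. The log2 fold change was -0.22 (standard error 0.074, edgeR's quasi-likelihood test, adjusted p = 0.0490). The call was lost without NC replicate 1, where the value was -0.13 (adjusted p = 0.207). It was also lost when NC replicate 3, siEIF1 replicate 1 or siEIF1 replicate 2 was left out, with adjusted p-values of 0.0838, 0.0845 and 0.167.

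SMS, spermine synthase (ENSG00000102172.16, chromosome X, 21940709 to 21994837, forward strand), did not pass the test. Its FPKM was 104.42, 96.08 and 91.44 in the NC libraries and 90.80, 87.32 and 90.66 in the siEIF1 libraries. NC replicate 3 was close to the siEIF1 libraries, and on the CPM scale the groups overlapped. Its log2 fold change was -0.099 (95% interval from -0.22 to 0.020, adjusted p = 0.238). Of the 4 synthesis genes, 3 were therefore called lower, AMD1 by a narrow margin, and 1 was not called. Among all tested genes, 10.4% were called lower. The median log2 fold change of the 4 was -0.28.

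SRM and ODC1 have been described as targets of the transcription factor MYC, which binds the E-box, CACGTG. As these members fell together, stretches of their promoter windows that hold this motif are shown. The windows, which run from 250 bases before to 50 bases after a start site, are RefSeq's on GRCh38.p14 and were found for 7 of the 10 members. CACGTG reads the same on both strands, and capitals mark it.
SRM, chr1:11060172-11060257, reverse strand, upstream of the gene: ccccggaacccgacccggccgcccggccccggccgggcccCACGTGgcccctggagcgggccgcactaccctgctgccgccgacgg
ODC1, chr2:10447993-10448081, reverse strand, intron 1 of the canonical transcript, at an alternative start site: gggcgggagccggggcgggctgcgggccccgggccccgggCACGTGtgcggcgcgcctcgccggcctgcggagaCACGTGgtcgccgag
The motif starts 199 bases before the SRM start site, and the ODC1 window at the alternative start holds 2 copies. The window at the main ODC1 start site and the windows of AMD1, SMS, OAZ1, OAZ2 and SAT1 do not hold these letters. Of 35116 such windows over all genes, 7.26% hold the motif at least once and 0.664% more than once. MYC itself had an FPKM of 56.81, 54.68 and 56.72 in the NC libraries and of 52.68, 47.74 and 53.20 in the siEIF1 libraries. Its log2 fold change was -0.11 (95% interval from -0.22 to -0.0078, adjusted p = 0.125), and that of MAX, the protein partner of MYC, was 0.00087 (adjusted p = 0.994). Whether MYC took part in the lower ODC1 and SRM levels was not tested.

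OAZ1 (ENSG00000104904.12, chromosome 19, 2269509 to 2273490, forward strand) was the most abundant member, among the 0.634% most abundant genes by mean FPKM. Its FPKM was 161.44, 146.79 and 152.86 in the NC libraries and 146.12, 140.65 and 139.40 in the siEIF1 libraries. Each siEIF1 library lay below each NC library, though NC replicate 2 and siEIF1 replicate 1 were almost level. The log2 fold change was -0.093 (95% interval from -0.21 to 0.021), and the adjusted p was 0.247. Exons of OAZ1 overlap those of JSRP1 on the other strand, which had from 414 to 519 counts a library, and those of another gene on its own strand (ENSG00000273734) with 111 to 175 counts, while OAZ1 had at least 17313. AMD1, SRM, SMS and OAZ1 have named pseudogenes, and reads that match a gene and its copy equally well are not uniquely mapped and were not counted.

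OAZ2 (ENSG00000180304.14, chromosome 15, 64687573 to 64703281, reverse strand) had an FPKM of 9.79, 10.74 and 10.96 in the NC libraries and of 10.11, 10.44 and 10.54 in the siEIF1 libraries. The siEIF1 values lay inside the NC range. It had a log2 fold change of 0.0021, with a 95% interval from -0.11 to 0.12 (adjusted p = 0.985). Exons of OAZ2 overlap those of a gene on the other strand (ENSG00000265967), which had from 3 to 14 counts a library.

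AZIN1, the antizyme inhibitor (ENSG00000155096.15, chromosome 8, 102826111 to 102893864, reverse strand), had an FPKM of 14.59, 12.78 and 13.50 in the NC libraries and of 14.18, 13.39 and 14.17 in the siEIF1 libraries. The groups overlapped. Its log2 fold change was 0.050, with a 95% interval from -0.065 to 0.17 (adjusted p = 0.567). For these 3 control genes, changes of more than 0.21 on the log2 scale in either direction lay outside the intervals. Exons of AZIN1 overlap those of another gene on its own strand (ENSG00000289653), for which no counts were found.

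**Figure D2:**
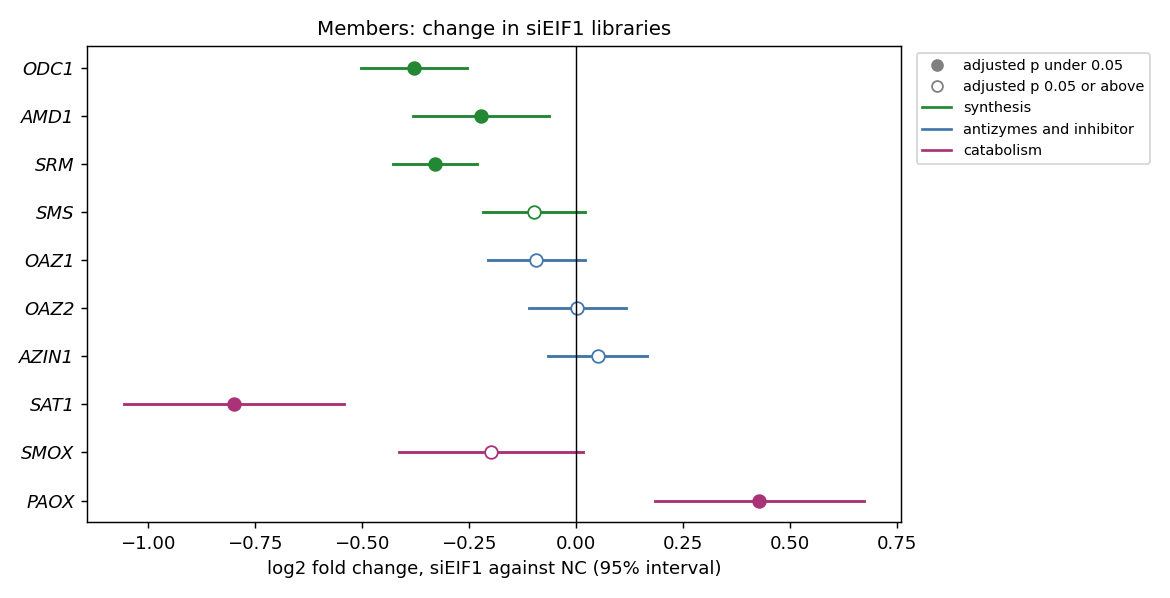
Log2 fold change of each polyamine gene in siEIF1 against NC (horizontal axis), with its 95% interval from edgeR, coloured by role. Filled points have an adjusted p under 0.05. ODC1, AMD1, SRM and SAT1 lie left of 0, PAOX lies right of 0, and the intervals of OAZ1, OAZ2, AZIN1, SMS and SMOX cross 0.

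Of the breakdown enzymes, SAT1, spermidine/spermine N1-acetyltransferase (ENSG00000130066.17, chromosome X, 23783173 to 23786210, forward strand), fell the most. Its FPKM was 44.29, 28.05 and 33.32 in the NC and 19.74, 18.80 and 21.32 in the siEIF1 libraries. The NC libraries were spread widely, with replicate 1 the highest, while the siEIF1 libraries lay close together and under all of them. The mean fell from 35.2 ± 8.28 to 20.0 ± 1.27 (SD, n = 3), and the log2 fold change was -0.80 (standard error 0.119, edgeR's quasi-likelihood test, adjusted p = 3.95e-04). Without NC replicate 1 it was -0.60 (adjusted p = 2.08e-04). Exons of SAT1 overlap those of another gene on its own strand (ENSG00000288706), for which no counts were found. SAT1 transcripts are known to be spliced in a form with an extra exon that is not translated into the enzyme, and counts per gene do not separate the forms.

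SMOX, spermine oxidase (ENSG00000088826.18, chromosome 20, 4120980 to 4187747, forward strand), had an FPKM of 3.01, 2.50 and 2.88 in the NC libraries and of 2.52, 2.15 and 2.54 in the siEIF1 libraries. The lowest NC library lay among the siEIF1 libraries. SMOX had a log2 fold change of -0.20 (95% interval from -0.41 to 0.017, adjusted p = 0.189).

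PAOX, peroxisomal polyamine oxidase (ENSG00000148832.16, chromosome 10, 133379261 to 133391694, forward strand), was the only member that rose. Its FPKM was 2.02, 2.03 and 2.08 in the NC and 2.49, 2.99 and 2.64 in the siEIF1 libraries. All siEIF1 libraries lay above the NC libraries, which were nearly equal. PAOX rose by 0.43 on the log2 scale (standard error 0.113, edgeR's quasi-likelihood test, adjusted p = 0.0169). The call was lost without NC replicate 1 (adjusted p = 0.0509), NC replicate 3 (0.0528) or siEIF1 replicate 2 (0.0876, log2 fold change 0.33). PAOX had the fewest counts of the members, from 148 to 248 a library, and a gene that overlaps its exons on the same strand (ENSG00000254536) had from 475 to 663, with a log2 fold change of 0.16 (adjusted p = 0.122). How the counting assigned reads in the shared exons is not given in the sources used here.

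Within the NC group, replicate 1 had the highest CPM for 8 of the 10 members. How often it was the highest over all tested genes was not counted. With that library left out, 3 members remained lower and 0 higher. ODC1 then had a log2 fold change of -0.32 (adjusted p = 0.00217), SRM of -0.32 (adjusted p = 0.00117) and SAT1 of -0.60, while AMD1 and PAOX lost their calls. SMS moved from -0.099 to -0.044 and AZIN1 from 0.050 to 0.10, and OAZ2 was at -0.044 in place of 0.0021, none of them called with or without that library.

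By mean FPKM the order of the members in the NC libraries was OAZ1, ODC1, SMS, SRM, SAT1, AZIN1, OAZ2, AMD1, SMOX and PAOX. The siEIF1 order differed only in its last 2 places, where PAOX stood above SMOX. There the values of PAOX and SMOX overlapped, whereas in the NC libraries SMOX was above PAOX in each library. The lengths behind the FPKM values are not given in the sources used here. Counts and FPKM together implied a length of 12.4 to 12.7 kb for AMD1 and of 9.31 to 9.53 kb for OAZ2, whose canonical transcripts are 3423 and 1934 bases long. With CPM per kilobase of the canonical transcript instead, OAZ2 (50.8 in the NC group) stood above AZIN1 (24.3), and the rest of the order was the same.

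Ratios of summed FPKM within a library are given for the roles. No test is given for them, because they combine members and the planned exact test could not give a p under 0.1. The level of the ratios depends on the lengths behind the FPKM values. The implied length was 4.2 to 4.3 kb for OAZ1 (canonical transcript 1148 bases) and 3.4 to 3.5 kb for ODC1 (2476 bases). From NC to siEIF1, the log2 ratio of ODC1 to both antizymes changed by -0.29 with FPKM and by -0.30 with CPM. The ratio of ODC1 to both antizymes was 0.838, 0.784 and 0.807 in NC replicates 1 to 3 and 0.663, 0.632 and 0.693 in siEIF1 replicates 1 to 3. The groups did not overlap, with means of 0.810 ± 0.027 and 0.663 ± 0.031 (SD, n = 3). The ratio of both antizymes to AZIN1 was 11.74, 12.33 and 12.13 in the NC and 11.02, 11.28 and 10.58 in the siEIF1 libraries. These values did not overlap either. The CPM values of 37.1% of all tested genes did not overlap, but that share is for single genes, and none was computed for ratios. Neither antizyme nor AZIN1 passed the test alone. The ratio of the breakdown enzymes (SAT1, SMOX and PAOX) to the synthases (SRM and SMS) was 0.297, 0.209 and 0.249 in the NC and 0.177, 0.180 and 0.189 in the siEIF1 libraries. Here the NC libraries varied the most, and all siEIF1 libraries lay below them. The breakdown sum was mostly SAT1, with a mean FPKM of 35.2 in NC against 2.80 for SMOX and 2.04 for PAOX. The lower ratio therefore mainly follows the fall of SAT1, since SMOX was not called and PAOX rose. It does not describe the breakdown enzymes as a group. The antizyme sum was likewise mostly OAZ1, with at least 146.79 in the NC libraries against at most 10.96 for OAZ2.

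**Figure D3:**
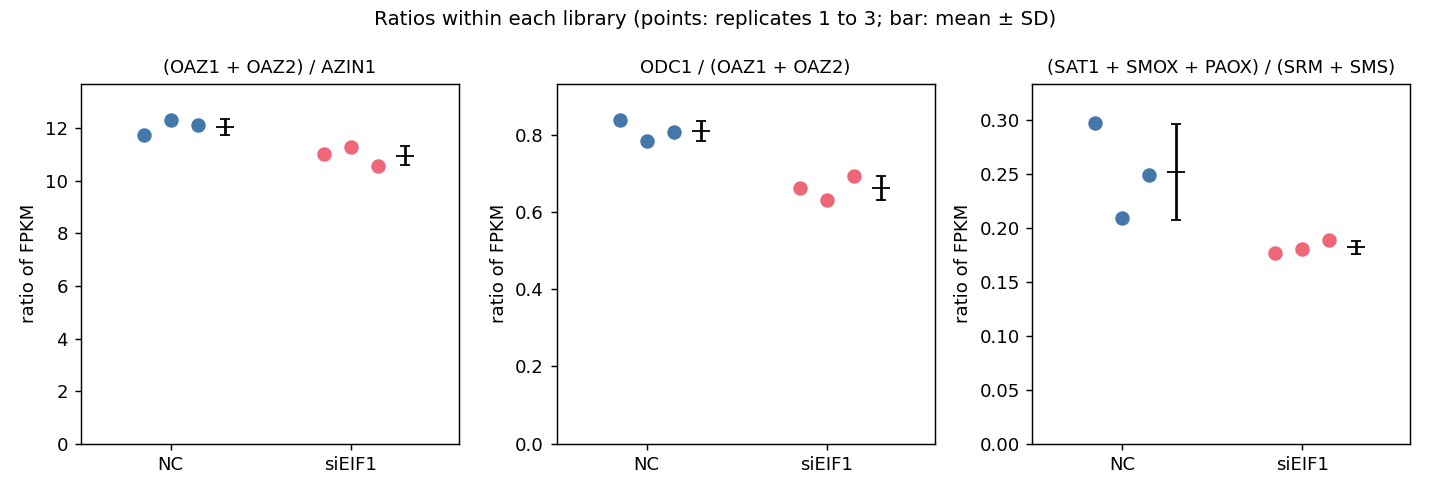
Ratios of FPKM within each library (vertical axes, starting at 0) for NC (blue) and siEIF1 (red). Points are replicates 1 to 3 from left to right and the bar is the mean ± SD. In all 3 panels the siEIF1 points lie below the NC points, with the widest gap relative to the spread for ODC1 over the antizymes.

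Around the 10 members, 36 other genes of the pathway were listed by role, of which 34 had counts and 28 were tested. Of these, 7 fell and 1 rose, 28.6% of those tested, against the 20.6% of all genes. Without NC replicate 1, or without siEIF1 replicate 2, 3 of them were lower and 0 higher. Their median log2 fold change was -0.13. None reached a fold above 2 or below 0.5.

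The gene that fell most among them was NQO1, a quinone reductase that is also known to bind ODC1 protein and to slow its breakdown. Its FPKM was 110.06, 80.01 and 91.35 in the NC and 63.98, 53.62 and 63.88 in the siEIF1 libraries. As for SAT1, NC replicate 1 was the highest and the groups did not overlap. NQO1 fell by 0.61 on the log2 scale (standard error 0.094, edgeR's quasi-likelihood test, adjusted p = 4.79e-04).

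In the list of polyamine and arginine transport, 3 of 7 tested genes fell, against 10.4% of all tested genes. All 7 had negative log2 fold changes, as did 8266 of the 16749 tested genes. SLC3A2, the shared heavy chain of several amino acid transporters, had an FPKM of 62.91, 59.73 and 61.96 in the NC libraries and of 47.87, 47.02 and 49.49 in the siEIF1 libraries (log2 fold change -0.33, adjusted p = 2.15e-04). These levels and this change were close to those of SRM. The organic cation transporter SLC22A3 fell by 0.31 (adjusted p = 0.0192) and the vesicular polyamine transporter SLC18B1 fell by 0.29 (adjusted p = 0.0488) on the log2 scale. SLC47A1 was at -0.33 but did not pass (adjusted p = 0.0757). Of 12 listed transport genes, 4 of the 11 with counts were too low to be tested.

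Spermidine is also the source of hypusine, a modified lysine that the translation factor EIF5A carries. EIF5A itself was abundant, with a mean FPKM of 185.7 ± 5.41 in NC and 180.7 ± 4.95 in siEIF1 libraries (SD, n = 3), and did not pass the test (log2 fold change -0.018, 95% interval from -0.12 to 0.083, adjusted p = 0.831). Its paralog EIF5A2 fell, with an FPKM of 3.12, 3.08 and 3.26 against 2.54, 2.06 and 2.61 (log2 fold change -0.37, adjusted p = 0.00513). DOHH, which completes hypusine, fell as well, from 4.10, 4.08 and 4.06 to 3.28, 3.18 and 3.26 (log2 fold change -0.31, adjusted p = 0.0182). DHPS, which starts the modification, had a log2 fold change of -0.22 with a wide interval from -0.57 to 0.14 (adjusted p = 0.401).

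In the salvage of methylthioadenosine, the by-product of the aminopropyl transfers of SRM and SMS, the 2 called genes went opposite ways. ADI1 was the 1 pathway gene outside the 10 members that rose, with an FPKM of 13.46, 14.14 and 14.60 in the NC libraries and of 16.52, 16.81 and 15.32 in the siEIF1 libraries (log2 fold change 0.23, adjusted p = 0.0127). ENOPH1 fell by 0.17 on the log2 scale (adjusted p = 0.0343). MTAP was at -0.12 (adjusted p = 0.123) and MRI1 at -0.019 (adjusted p = 0.881).

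None of the 5 tested genes of precursor and S-adenosylmethionine supply was called by edgeR, and 1 of them, MAT2A, had an unadjusted p under 0.05. MAT2A, the main S-adenosylmethionine synthetase outside the liver, had a log2 fold change of -0.14 (adjusted p = 0.0657), and its regulatory partner MAT2B of 0.095 (adjusted p = 0.175). ARG2, the mitochondrial arginase, was at -0.19 (adjusted p = 0.360) and AGMAT at -0.026 (adjusted p = 0.935). Nor was any of the 4 paralogs of the members called, of which 1, AZIN2, had an unadjusted p under 0.05. AZIN2 was at -0.37 (adjusted p = 0.0555), SAT2 at 0.10 (adjusted p = 0.313), OAZ3 at 0.020 (adjusted p = 0.959) and SATL1 at -0.43 (adjusted p = 0.467), with 95% intervals from -0.38 to 0.42 for OAZ3 and from -1.24 to 0.37 for SATL1.

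**Figure D4:**
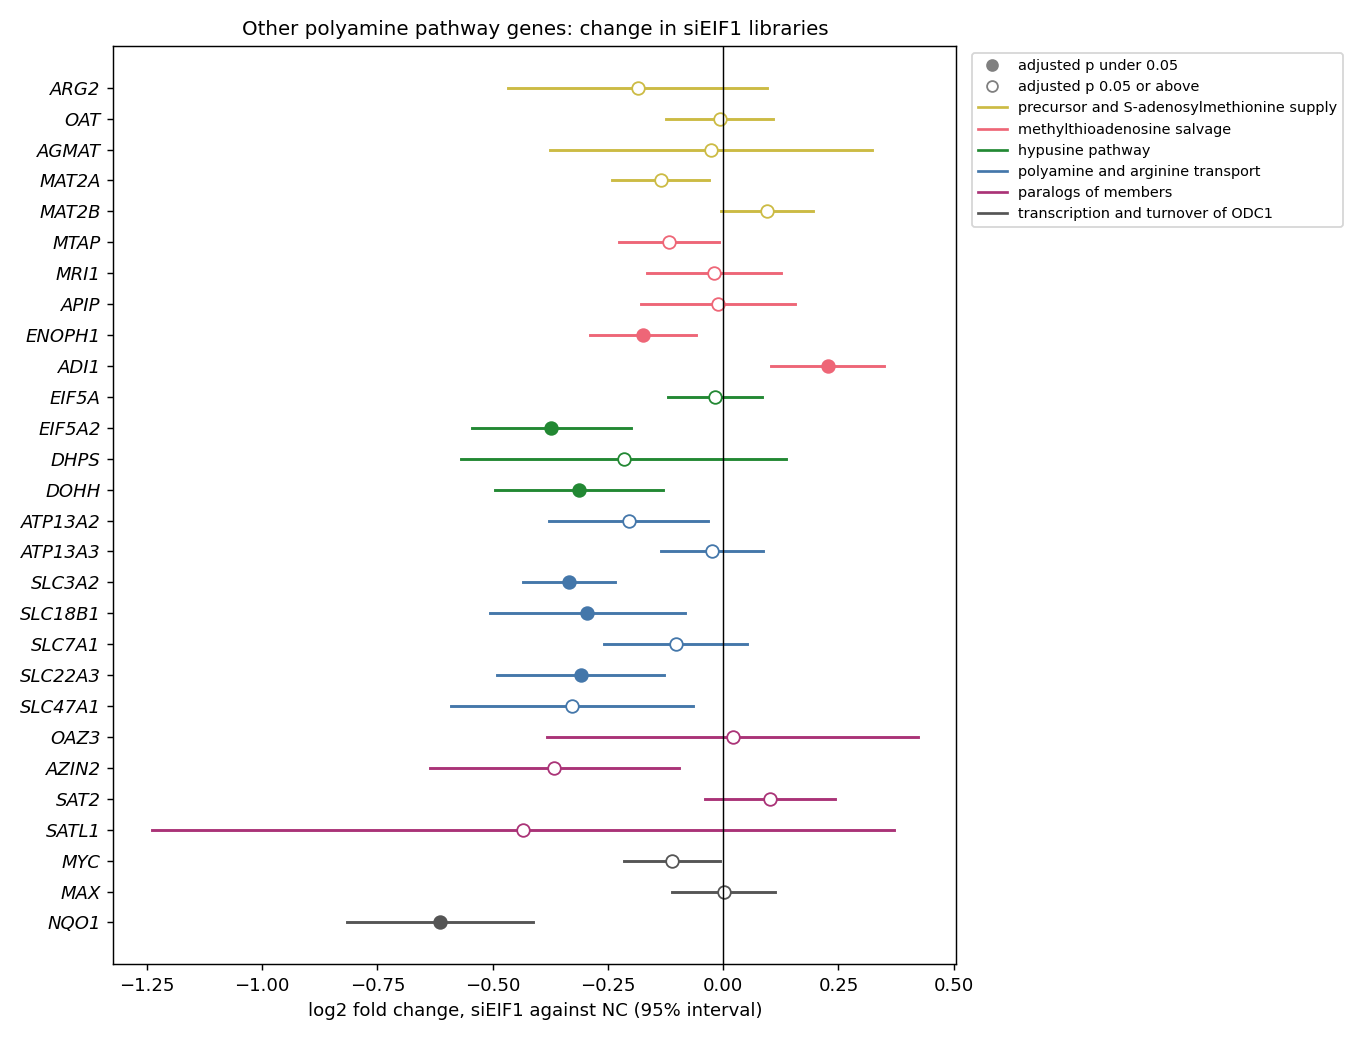
Log2 fold change in siEIF1 against NC (horizontal axis), with its 95% interval from edgeR, for the 28 tested pathway genes outside the 10 members, coloured by role. Filled points have an adjusted p under 0.05. NQO1 lies farthest left of the filled points, and ADI1 is the filled point right of 0.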

How the data were processed

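RNA-seq of 3 NC and 3 siEIF1 libraries was analysed. Groups and replicate numbers were read from the sample titles. Per the labels and the study's methods, the authors trimmed the reads with FASTX-Toolkit, aligned them to GRCh38 with HISAT2 and deposited raw counts of uniquely mapped reads per gene. The authors also deposited FPKM values, rounded to 2 decimals. The study's methods describe the libraries as strand-specific. The counting program, its strand setting, the annotation and the gene lengths are not given in the sources used here. The labels give TRIzol RNA and selection of polyadenylated mRNA. No column was left unmatched.

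Counts were fitted with edgeR 4.0.16 in R 4.3.3 (TMM, filterByExpr, quasi-likelihood test, Benjamini-Hochberg adjustment over all 16749 tested genes). Standard errors came from the F statistic and intervals from its degrees of freedom. DESeq2 1.42.0, the tool of the study's methods, and limma 3.58.1 on log2(FPKM + 1) and log2(FPKM + 0.1) were alternatives. The p-values measure the spread between 3 libraries a group. Libraries of a group differed by more than sampling noise (chi-square divided by its degrees of freedom, 3.00 to 14.1). The fit was run on simulated data in which 200 genes changed by 2-fold or more. No member changed that much, so the simulation does not bear on the calls of the members. An exact permutation test planned for the ratios was run, but with 3 libraries a group its p cannot fall below 0.1. Its p-values are not given, also because the ratios combine members.

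The members and gene lists were chosen with earlier results of these data known. Named are all 10 members, EIF1, the 4 pathway genes with the smallest p in each list, every called pathway gene, and MYC and MAX. Markers are named as a check of the cell line, and genes that overlap a member because of their position. Loci came from GENCODE release 44 on GRCh38.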

Additional observations from a re-analysis of the deposited data

How the results depend on the processing

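The lower levels of ODC1, SRM and SAT1 passed an adjusted p of 0.05 under all 14 alternatives each, with log2 fold changes from -0.43 to -0.32, from -0.35 to -0.31 and from -0.94 to -0.60. SMS, OAZ1, OAZ2, AZIN1 and SMOX were called under none of theirs. AMD1 was called under 8 of 14 and PAOX under 11 of 14. AMD1 was also not called by limma on FPKM, at -0.19 (adjusted p = 0.138) with a pseudocount of 1 and -0.23 (adjusted p = 0.130) with 0.1. With a 2-fold limit, 0 members and 0 other pathway genes were called in either direction. At an adjusted p under 0.01, 0 members and 0 other pathway genes were higher, and 3 members and 3 other pathway genes were lower. With each library left out in turn, members called higher ranged from 0 to 1 and lower from 3 to 4. Other pathway genes called higher ranged from 0 to 1 and lower from 3 (NC replicate 1 or siEIF1 replicate 2 left out) to 9 (siEIF1 replicate 3 left out). With the replicate number as a block, 11 other pathway genes were lower in place of 7, and no member's call changed. Same-numbered libraries deviated together with correlations of 0.149, 0.0946 and 0.128, so the numbers were not taken as pairs, although each library correlated best with its own number. Low counts, under 300 in every library, limit PAOX, SMOX, ARG2, AGMAT, DHPS, AZIN2, OAZ3 and SATL1. DOHH (248 to 303 counts) and SLC18B1 (263 to 345) were near this limit.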
